A study of Homo sapiens with 12 samples.

Results

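TXNIP and 5 related genes were followed in PLC/PRF/5, an epithelial line derived from a human hepatoma, after knockout and re-expression of HKDC1, a hexokinase-family gene. The 6 genes were TXNIP, its fellow alpha-arrestins ARRDC4 and ARRDC3, and the glucose-sensing transcription factor genes MLXIP, MLXIPL and MLX, out of 57820 genes counted in each library. TXNIP was chosen because its counts were low in the knockout libraries and higher in the rescue libraries, so both of those differences are given as descriptions without a test. The other members were added as its family and pathway, and all 6 passed the filter on low counts. TXNIP was found under the identifier ENSG00000117289.7, as given for the gene when it was chosen, and the others by symbol.

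Polyadenylated RNA was sequenced with a stranded kit from 12 libraries in 3 groups of 4. By their titles, KO_RES libraries were HKDC1 knockout cells with HKDC1 put back, KO libraries were HKDC1 knockout cells, and control libraries were wild type. The KO and KO_RES titles carry the numbers KO1 and KO2, taken here as 2 knockout lines with 2 libraries each per group, and all groups share the PLC/PRF/5 background. Whether a line is a single clone, how HKDC1 was put back and the glucose in the medium are not given in the sources used here, nor whether libraries of a group came from separate cultures, so p-values measure the spread between these libraries.

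MLXIP encodes MondoA and MLXIPL encodes ChREBP, which pair with MLX on DNA and switch genes on when phosphorylated sugars build up in the cell. TXNIP is their best-known target: its protein binds thioredoxin and lowers glucose uptake by drawing glucose transporters off the cell surface. ARRDC4 is a second classical target with a related effect on glucose uptake, while ARRDC3 is an arrestin better known for handling receptors at the membrane. In hepatocytes ChREBP is known for driving genes of sugar breakdown and fat synthesis.

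The promoters of the 3 arrestin genes are shown because MondoA and ChREBP are known to bind pairs of E-box-like half-sites. All 6 members were matched in the RefSeq promoter table of GRCh38.p14, which gives 250 bases before to 50 after each start, and TXNIP and ARRDC3 have more than 1 window, of which the most upstream is shown. Capitals mark CACGNG on either strand, a motif chosen after the TXNIP window had been read. The windows lie at chr1:145996530-145996829 (minus strand) for TXNIP, chr15:97960453-97960752 (plus strand) for ARRDC4 and chr5:91383268-91383567 (minus strand) for ARRDC3.
TXNIP: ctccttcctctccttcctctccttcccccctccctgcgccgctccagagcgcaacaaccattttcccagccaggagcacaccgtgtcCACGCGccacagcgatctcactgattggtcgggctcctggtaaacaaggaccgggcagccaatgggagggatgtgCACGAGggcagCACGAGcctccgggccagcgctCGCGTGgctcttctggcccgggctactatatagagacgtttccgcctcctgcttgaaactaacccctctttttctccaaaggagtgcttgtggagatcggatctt
ARRDC4: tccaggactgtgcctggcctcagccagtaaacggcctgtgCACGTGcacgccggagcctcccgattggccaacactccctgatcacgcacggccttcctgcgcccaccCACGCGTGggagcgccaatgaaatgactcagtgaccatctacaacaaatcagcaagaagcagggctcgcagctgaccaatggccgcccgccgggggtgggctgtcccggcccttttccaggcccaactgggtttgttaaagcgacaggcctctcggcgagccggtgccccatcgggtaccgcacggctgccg
ARRDC3: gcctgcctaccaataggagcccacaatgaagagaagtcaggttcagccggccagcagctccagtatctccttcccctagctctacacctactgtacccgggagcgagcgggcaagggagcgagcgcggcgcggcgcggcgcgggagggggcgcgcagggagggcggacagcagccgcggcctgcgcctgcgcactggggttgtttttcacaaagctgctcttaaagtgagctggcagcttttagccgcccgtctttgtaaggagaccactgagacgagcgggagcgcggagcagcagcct
The TXNIP window held 4 CACGNG matches, starting at -163, -88, -77 and -55 from the start site. The matches at -88 and -77 form 1 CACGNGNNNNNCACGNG pair, which 20 of 35116 promoter windows (0.057%) held. The ARRDC4 window held 3 matches at -210, -142 and -140, of which the last pair overlap, and the match at -210 reads CACGTG, a full E-box found in 7.26% of windows. At least 4 CACGNG matches were present in 0.524% of windows and at least 3 in 1.98%. The ARRDC3 window shown held none, whereas 30.5% of windows held at least 1; its second window held 1 match and the second TXNIP window none. The MLX window held 1 match, at -50, which reads CACGTG, and the windows of MLXIP and MLXIPL held none. CCAAT on either strand, a short promoter element, occurred 2 times in the TXNIP window, 3 times in ARRDC4 and 1 time in ARRDC3, and 34.6% of windows held at least 1. A match is a run of letters only, and binding was not measured.

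Each library held between 36075411 and 71853616 reads assigned to genes. Liver markers fitted the label: 9 of 10 exceeded 1 CPM (counts per 1000000 reads in genes, after scaling) in every library, the exception being TTR, which was at 0 in KO_RES 1_2. TTR reached at most 0.486 CPM in KO_RES and 1.03 CPM in KO, against 1.60 to 34.1 CPM in control. All 5 epithelial markers exceeded 1 CPM throughout. Fibroblast markers summed to at most 11.8 CPM and endothelial markers to at most 2.02 CPM, and of the blood cell markers LYZ reached 921 CPM while PTPRC never exceeded 5 counts. In 4 libraries the genotype field and the title disagreed: KO_RES 2_1 and KO 2_2 of line 2, and KO_RES 1_1 and KO 1_2 of line 1. Groups here follow the titles. Controls 1 and 2 stood apart from controls 3 and 4, with ALB at 908 and 822 CPM against 23 and 28.2 CPM.

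HKDC1 itself was measured first as a check of the labels. It stood at 1237, 1546, 507 and 626 CPM in KO_RES libraries (in the order 1_1, 1_2, 2_1, 2_2, as throughout), at 153, 147, 91.2 and 49.3 CPM in KO libraries, and at 157, 154, 183 and 124 CPM in controls 1 to 4. All 4 libraries titled KO_RES were therefore above every other library, which follows the titles and not the genotype field. The log2 fold change of KO_RES over KO was 3.15 (SE 0.42) with an adjusted p of 0.156, and 3.15 with an adjusted p of 0.00346 when each KO_RES library was paired with the KO library of its line and number. HKDC1 levels of KO and control libraries overlapped (log2 fold change -0.49, SE 0.39, adjusted p = 0.510). A knockout can leave the transcript in place, so the count over the whole gene does not check the edit. By line, HKDC1 mRNA was lower in KO2 than in control (log2 fold change -1.14, adjusted p = 0.0161), while KO1 gave -0.045 (adjusted p = 0.920).

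TXNIP was low in HKDC1 knockout cells and partly back in rescued cells. It measured 6.76, 9.91, 2.92 and 17.2 CPM in KO_RES libraries, 1.72, 2.18, 0.661 and 2.54 CPM in KO libraries, and 11.5, 15.4, 14.0 and 17.0 CPM in controls. Every KO library lay below every control and every KO_RES library. KO_RES 2_2 lay just above the highest control, and the other KO_RES libraries lay below every control. KO_RES 2_2 also had the largest share of reads in no gene, 19.5%, the next being 14.2% in KO 2_2, and the largest scaling factor, 1.13. Whether these bear on its levels of TXNIP, ARRDC4 or MLXIPL was not tested. The means were 9.19 ± 6.04 CPM in KO_RES, 1.78 ± 0.816 CPM in KO and 14.5 ± 2.32 CPM in control (SD, n = 4 each). Relative to the control mean, KO_RES stood at 63.4% and KO at 12.3%. The log2 fold change was -3.03 for KO over control and 2.37 for KO_RES over KO. As background to these descriptions, 8.67% of the 19200 genes tested had every KO library below every control, and 0.682% had every KO_RES library above every KO library. In bulk RNA, fewer cells with TXNIP and less TXNIP RNA per cell cannot be told apart.

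**Figure D1:**
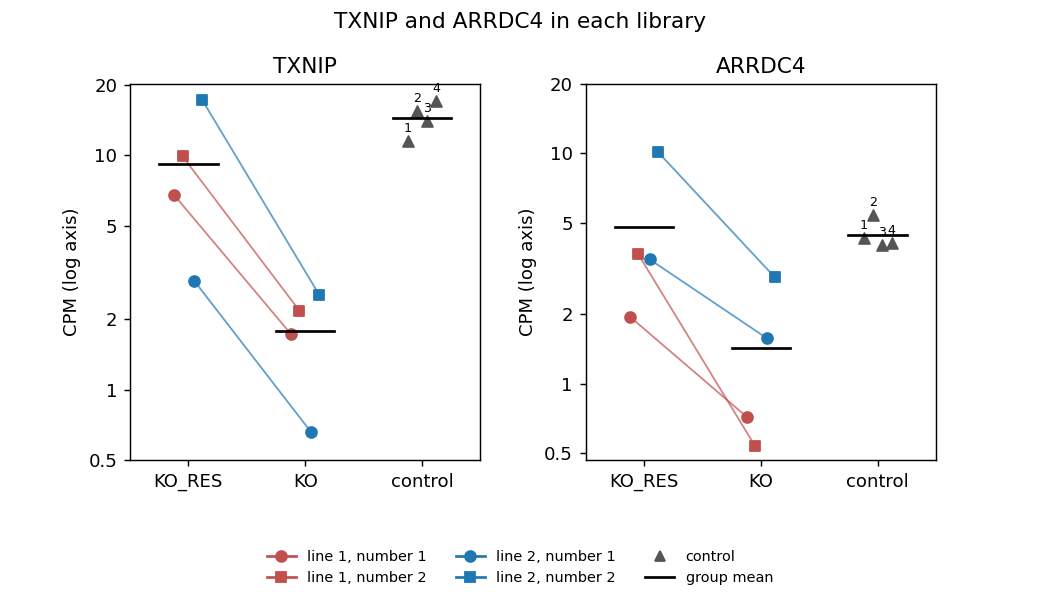
TXNIP (left) and ARRDC4 (right) in each library, in CPM on log axes, with lines joining KO_RES and KO libraries of the same line and number and bars at group means. TXNIP is between 0.661 and 2.54 CPM in KO and between 11.5 and 17.0 CPM in control, and every joining line falls to the KO side for both genes.

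TXNIP was higher in KO_RES in each of the 4 matched pairs, which 11% of genes tested were; since TXNIP was chosen for its rise in rescue, the pairs describe that rise and do not add to it. KO_RES over KO ratios were 4.42 and 6.76 in the 2 pairs of line 2 and 3.92 and 4.55 in the 2 pairs of line 1. TXNIP therefore spread more between libraries of one group than between the ratios of its pairs. Libraries numbered 2 were higher than those numbered 1 in all 4 combinations of group and line, by 1.47 times in KO1_RES, 1.26 times in KO1, 5.89 times in KO2_RES and 3.85 times in KO2. Counting error was smaller than this spread: the lowest library, KO 2_1, had 36 TXNIP reads, with an exact 95% Poisson interval of 0.463 to 0.915 CPM that covers counting error only. The gap between the highest KO and the lowest KO_RES library was narrower. Their intervals, 2.19 to 2.93 CPM in KO 2_2 and 2.48 to 3.41 CPM in KO_RES 2_1, overlapped.

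Both knockout lines had low TXNIP, and no difference between them passed the test. KO2 averaged 1.6 CPM, or 11.1% of control, and KO1 averaged 1.95 CPM, or 13.5% of control. The choice of TXNIP was not made on KO2 against KO1, but it used the same KO libraries. The test is therefore not independent of that choice, and the same holds for the difference in rescue between lines given below. KO2 against KO1 gave -0.26 on the log2 scale (SE 0.72, 95% interval -1.68 to 1.15, adjusted p = 0.867). The interval covers a more than 2-fold difference in either direction, so the lines were not shown to be alike. Rescue raised the TXNIP log2 level by 2.63 in line 2 and by 2.10 in line 1, a difference of 0.53 (SE 1.0, 95% interval -1.42 to 2.48, adjusted p = 1.0). Line 2 rests heavily on single libraries: KO2_RES against KO2 was 0.85 without KO_RES 2_2, 3.91 without KO 2_2, 3.37 without KO_RES 2_1 and 1.95 without KO 2_1. Omitting KO 2_2 gave -4.45 for KO2 against control and -1.55 for KO2 against KO1, and omitting KO 2_1 gave -2.51 for KO2 against control and 0.40 for KO2 against KO1.

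The conflict between titles and genotype field touches TXNIP directly. Grouped by the genotype field, the log2 fold changes were 1.40 for rescue over knockout and -2.27 for knockout over control. Over only the 8 libraries whose labels agree, they were 3.50 for rescue over knockout and -3.60 for knockout over control. With controls 3 and 4 alone as reference the knockout value was -3.12, and with controls 1 and 2 alone it was -2.94.

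ARRDC4 had the pattern nearest to TXNIP among the members, at a lower level. It measured 1.95, 3.65, 3.46 and 10.1 CPM in KO_RES libraries, 0.719, 0.539, 1.58 and 2.90 CPM in KO libraries, and 4.27, 5.42, 4.0 and 4.06 CPM in controls. Every KO library was below every control, as in 8.67% of genes tested, and KO_RES reached from below the controls to above them, with KO_RES 2_2 again highest. Group means were 4.79 ± 3.63 CPM in KO_RES, 1.43 ± 1.08 CPM in KO and 4.44 ± 0.664 CPM in control (SD, n = 4 each). The log2 fold change of KO over control was -1.62 (SE 0.57), which missed the threshold over all genes (adjusted p = 0.115). The same difference gave an adjusted p of 0.027 in DESeq2, and -2.23 with an adjusted p of 0.0496 without KO 2_2.

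Rescue values of ARRDC4 were higher in all 4 pairs, by 2.72, 6.78, 2.19 and 3.49 times, a pattern seen in 11% of genes tested. The log2 fold change of KO_RES over KO was 1.74 (SE 0.57, adjusted p = 1.0, unadjusted p from edgeR's quasi-likelihood test 0.0100), or 1.74 with an adjusted p of 0.125 in the paired fit, which called 0.0437% of genes. It was 1.07 without KO_RES 2_2 and 2.34 without KO 2_2, and neither passed. In the 3-group fit KO against control called 6.28% of genes (3.41% lower). TXNIP was chosen on this comparison and is left out of the count of calls. None of the other members was called. DESeq2, which called 12.2% of genes, called ARRDC4, the one of these members with an unadjusted edgeR p under 0.05. KO_RES against KO called 0% of genes, with 473 genes at an unadjusted p under 0.05 and 6 called by DESeq2.

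The lines differed in ARRDC4. KO2 averaged 2.24 CPM, 50.4% of control, which is -0.98 on the log2 scale (SE 0.44, adjusted p = 0.193), where 10% of genes were called. KO1 averaged 0.629 CPM, 14.2% of control, and fell by 2.81 on the log2 scale (SE 0.50, adjusted p = 0.00377), in a comparison that called 18.1% of genes and 9.74% as lower. KO2 was higher than KO1 by 1.82 (SE 0.52, adjusted p = 0.0456), in a comparison that called 12% of genes, 6.26% as higher. That last call lies at the threshold: it held in 6 of 16 alternatives, with adjusted p between 0.05 and 0.0588 when any single control, KO_RES 1_1, KO_RES 1_2 or KO 2_1 was left out, and of 0.161, 0.221 and 0.256 when KO 1_1, KO 1_2 and KO 2_2 were. The KO1 call rose to an adjusted p of 0.0532 without KO 1_2. By line, rescue gave 1.59 in line 2 (SE 0.49, adjusted p = 1.0; 0.62 without KO_RES 2_2) and 2.14 in line 1 (SE 0.52, adjusted p = 0.233), where 0.00486% and 0.195% of genes were called. The rescue effect of line 2 minus line 1 was -0.55 (SE 0.70, 95% interval -1.92 to 0.82, adjusted p = 1.0; -1.52 without KO_RES 2_2), and 0% of genes were called for that difference, with 598 at an unadjusted p under 0.05 and 33 by DESeq2.

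**Figure D2:**
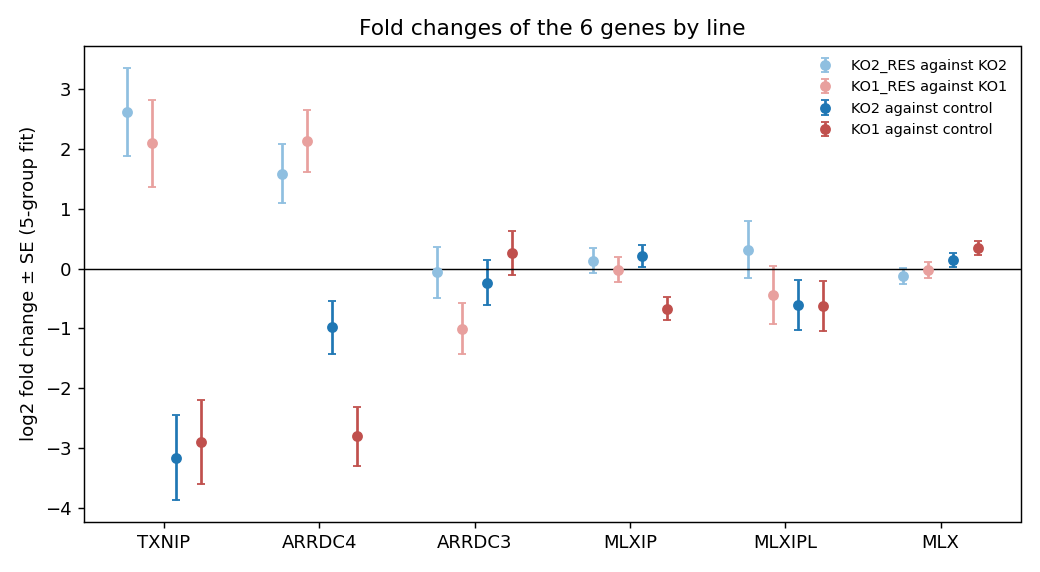
Log2 fold changes of the 6 genes (points) with their SE (bars) by line from the 5-group fit, rescue over knockout in pale and knockout over control in dark colours. Against control, TXNIP is at -3.16 in KO2 and -2.90 in KO1, ARRDC4 is at -0.98 in KO2 and -2.81 in KO1, and the other 4 genes lie closer to 0.

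ARRDC3 did not separate the groups. It measured 18.4, 14.3, 24.0 and 20.7 CPM in KO_RES, 48.3, 17.2, 20.7 and 25.8 CPM in KO, and 32.1, 34.7, 25 and 17.5 CPM in control. The 3 groups overlapped, and KO 1_1 was the highest of all libraries. The log2 fold change of KO over control was 0.035 (SE 0.31, 95% interval -0.58 to 0.65, adjusted p = 0.964), and that of KO_RES over KO was -0.53 (SE 0.32, adjusted p = 1.0). KO1 gave 0.26 and KO2 gave -0.23 against control (adjusted p = 0.664 and 0.758). Without KO 1_1 the KO1 value was -0.69 and the pooled KO value -0.36, neither of which passed. KO2 against KO1 gave -0.50 (adjusted p = 0.517) and 0.45 without KO 1_1.

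The sensors themselves moved less. MLXIP measured 47.5, 57.3, 105 and 111 CPM in KO_RES, 44.5, 61.7, 99.7 and 96.5 CPM in KO, and 73.8, 67.3, 93.2 and 103 CPM in control. Its libraries split by line and not by rescue, with line 2 at or above 96.5 CPM and line 1 at or below 61.7 CPM in both groups. How many of all genes split in this way was not counted. KO over control was -0.16 (SE 0.31, adjusted p = 0.820) and KO_RES over KO was 0.084 (SE 0.31, adjusted p = 1.0), both on the log2 scale. KO2 against control was 0.22 (SE 0.18, adjusted p = 0.515), and MLXIP fell by 0.67 in KO1 against control (SE 0.19, adjusted p = 0.0344), where 18.1% of genes were called. KO2 was higher than KO1 by 0.89 (SE 0.21, adjusted p = 0.0234), in a comparison that called 12% of genes. The KO1 call was lost without KO 1_1 (-0.47, adjusted p = 0.275), KO 2_2 (0.0511), control 3 (0.0614) or control 4 (0.055). The difference between lines was lost without KO 1_1 (0.176), KO 2_1 (0.0956) or KO 2_2 (0.0934), with the fold change between 0.68 and 1.14 over all single omissions. Beside these levels, TXNIP averaged 1.6 CPM in KO2, where MLXIP averaged 98.1 CPM, and 1.95 CPM in KO1, where MLXIP averaged 53.1 CPM.

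MLXIPL was the least abundant sensor. It measured 4.73, 4.19, 4.66 and 10.6 CPM in KO_RES, 4.63, 7.49, 5.80 and 6.40 CPM in KO, and 11.7, 13.8, 5.54 and 6.33 CPM in control. Controls 1 and 2 were above every other library, and these also held the high ALB; controls 3 and 4 lay within the KO range. KO over control was -0.62 (SE 0.36, adjusted p = 0.348), and it was 0.034 with controls 3 and 4 alone and -1.09 with controls 1 and 2 alone. KO_RES over KO was -0.0083 (SE 0.36, 95% interval -0.72 to 0.70, adjusted p = 1.0). The lines gave -0.63 in KO1 and -0.61 in KO2 against control, neither of which passed.

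MLX, the shared partner, was the most abundant member per kilobase of exon and had the smallest SD relative to its mean in each group. It measured 86.9, 82.3, 77.1 and 61.3 CPM in KO_RES, 87.2, 85.0, 81.5 and 68.7 CPM in KO, and 70.0, 64.4, 71.1 and 66.1 CPM in control. KO over control was 0.25 (SE 0.12, adjusted p = 0.246), with 3 of 4 KO libraries above every control. KO_RES over KO was -0.068 (SE 0.12, 95% interval -0.30 to 0.16, adjusted p = 1.0), and 0 of 4 pairs were higher in KO_RES. How many of all genes had either of these patterns, 3 of 4 KO libraries above every control or 0 of 4 pairs higher, was not counted. KO1 against control was 0.34 (adjusted p = 0.0714) and KO2 against control 0.14 (adjusted p = 0.505).

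**Figure D3:**
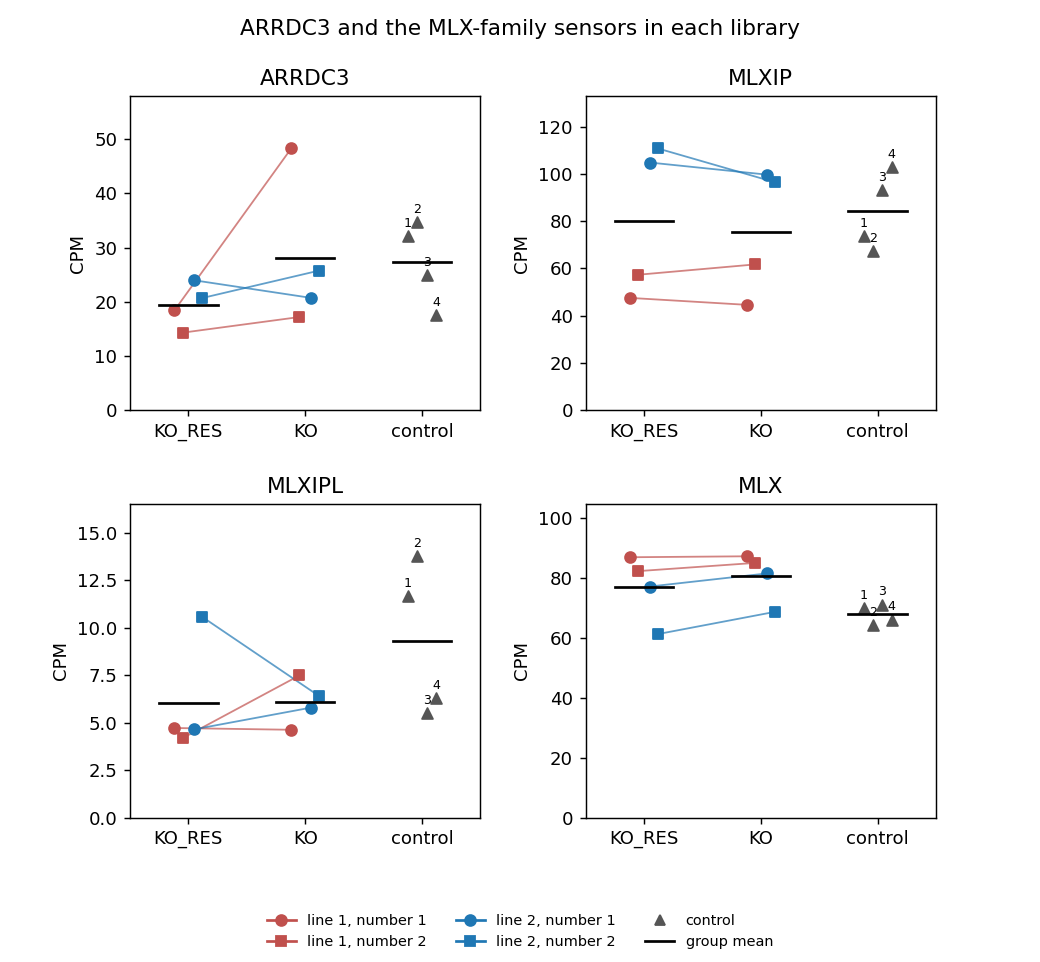
ARRDC3, MLXIP, MLXIPL and MLX in each library, in CPM on linear axes from 0, with lines joining KO_RES and KO libraries of the same line and number and bars at group means. MLXIP divides by line in both groups, and controls 1 and 2 hold the highest MLXIPL values, 11.7 and 13.8 CPM.

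Per kilobase of annotated exon, the control order of mean levels was MLX at 15.9, MLXIP at 6.06, ARRDC3 at 5.54, TXNIP at 4.0, MLXIPL at 1.94 and ARRDC4 at 1.09 CPM per kilobase. In KO the order of TXNIP and MLXIPL turned, with TXNIP at 0.490 and MLXIPL at 1.26 CPM per kilobase. The TXNIP to ARRDC4 ratio per kilobase had a median of 2.48 in KO_RES, 1.84 in KO and 3.56 in control, with overlapping ranges. These medians lie between lines that differed. The ratio was 0.947 and 1.91 in KO2_RES and 0.470 and 0.986 in KO2, below every control (3.04 to 4.71). It was 3.89 and 3.05 in KO1_RES and 2.70 and 4.54 in KO1. MLXIP exceeded MLXIPL in every library, by 1.69 to 7.80 times per kilobase. Exon lengths come from GENCODE 29 gene models and are not those of the transcripts used in these cells, so neighbours such as MLXIP and ARRDC3 are not ordered beyond their spread.

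Across the 12 libraries, ARRDC4 was the member whose log2 CPM followed TXNIP most closely (Pearson r = 0.747, Spearman rho = 0.916). By Pearson r, ARRDC4 ranked 222 of 12508 genes with a mean of at least 2 CPM, and no rank was taken by rho. MLXIPL (r = 0.419), MLXIP (0.105), ARRDC3 (-0.120) and MLX (-0.642) followed TXNIP less. Among the highest correlations over all genes were those of HACE1 (0.962), SCAP (0.933), TMEM63A (0.915), TMEM170B (0.915), ATG16L2 (0.915) and CUL7 (0.908). The lowest belonged to FAM83G (-0.928), VPS35 (-0.928), PRKAR1B (-0.926) and ZPR1 (-0.926). These genes moved over far smaller ranges than TXNIP: HACE1 averaged 23.4 CPM in KO_RES, 20.3 CPM in KO and 25 CPM in control, and ZPR1 averaged 94.6 CPM in KO_RES, 115 CPM in KO and 72.0 CPM in control. The 12 points share lines and groups, so the correlations are descriptions.

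Known or proposed targets of the sensors were then read as lists. Of 54 genes tested on the 9 lists that surround the pathway, 0 rose and 7 fell in KO against control, beside 2.87% of all genes called higher and 3.41% called lower. None of 9 lipogenic genes was called (median log2 fold change -0.18, against 0.011 over all genes), with FASN, fatty acid synthase, at -0.50 (adjusted p = 0.131). Of 7 sugar-handling genes 2 fell, none had a positive fold change, and the median was -0.59. This pooled reading joins lines that differed: 2 of the 7 had a positive fold change in KO1 and 1 in KO2. SLC2A2 averaged 94.9% of control in KO1 and 14.0% in KO2, and G6PC1 5.60% and 54.5%. How often a list of this size has no positive fold change was not counted. PKLR, the liver pyruvate kinase and a classical ChREBP target, measured 2.89, 4.70, 2.84 and 7.02 CPM in KO_RES, 1.71, 3.28, 2.4 and 4.79 CPM in KO, and 8.98, 9.54, 7.65 and 12.3 CPM in control. It was below every control in all KO and KO_RES libraries. In 8.67% of genes every KO library was below every control, and the share with every KO_RES library below as well was not counted. PKLR fell by 1.66 in KO (SE 0.36, adjusted p = 0.0225). TKFC, which phosphorylates glyceraldehyde from fructose breakdown, fell by 0.59 (SE 0.13, adjusted p = 0.0237).

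Of the other listed targets, 1 of 5 fell. APOC3, an apolipoprotein, gave -3.24 (SE 0.86, adjusted p = 0.0464), but controls 1 and 2 held 45.0 and 47.6 CPM against 3.28 and 4.57 CPM in controls 3 and 4, and with controls 3 and 4 alone the value was -0.57 (adjusted p = 0.721). Among other alpha-arrestins, 1 of 2 fell: ARRDC1 by 0.59 (SE 0.12, adjusted p = 0.0150), although unstranded counts gave -0.30 (adjusted p = 0.123). In the wider MYC/MAX/MLX network 1 of 8 fell (median -0.31), namely MXD4, a repressor that pairs with MAX, by 0.92 (SE 0.14, adjusted p = 0.00445). MXD4 averaged 14.4 ± 1.12 CPM in KO_RES, 14.8 ± 2.53 CPM in KO and 28.1 ± 3.34 CPM in control (SD, n = 4 each), and no KO_RES library reached the control range. How many of all genes stayed below control in KO_RES was not counted. Of 11 thioredoxin-system genes 1 fell (median -0.17), PRDX3, the mitochondrial peroxiredoxin, by 0.59 (SE 0.14, adjusted p = 0.0336). Of 5 NEDD4-family ubiquitin ligases, which bind alpha-arrestins, 1 fell (median 0.053), WWP1 by 0.62 (SE 0.13, adjusted p = 0.0207). None of 4 TXNIP partners and AMPK genes passed (median -0.075), nor any of 3 hexokinases.

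Most of these calls lay close to the threshold. Without 1 library, PKLR was lost for controls 1, 2 and 4 and KO 1_1, 1_2 and 2_1 (adjusted p up to 0.0662). TKFC was lost for controls 1 and 2 and KO 1_2 and 2_1 (up to 0.0727), and WWP1 for controls 1 and 2 and KO 1_1 and 2_1 (up to 0.0613). PRDX3 was lost for controls 1, 2 and 3 and every KO library (up to 0.0936), and ARRDC1 for KO 1_2 (0.0513). APOC3 was lost for controls 1 and 2, every KO library and KO_RES 1_1, 1_2 and 2_2 (up to 0.128). MXD4 passed with any single library left out. With controls 3 and 4 alone each of the 7 calls was lost, at adjusted p between 0.0552 for MXD4 and 0.721 for APOC3. With controls 1 and 2 alone PKLR (0.0539), ARRDC1 (0.061) and PRDX3 (0.052) were lost. Over only the 8 libraries whose labels agree, WWP1 (0.0603), ARRDC1 (0.083), MXD4 (0.107), TKFC (0.129), APOC3 (0.222) and PRDX3 (0.259) were lost, which leaves PKLR (0.043). ARRDC1 was lost with unstranded counts (0.123), PRDX3 with no filter (0.0558) and APOC3 with only the 2 groups compared (0.0654). Of 10 liver markers 4 fell in the same comparison, ALB, APOA1 and TTR among them. The fall of ALB rests on controls 1 and 2: its control range, 22.99 to 908 CPM, overlapped the KO range, 15.8 to 28.01 CPM. For APOA1 the lowest control, at 10.3 CPM, lay near the highest KO library, at 9.25 CPM, and the highest control was at 223 CPM. The summed level of the list was 1753 to 31020 CPM in KO_RES, 1678 to 24245 CPM in KO and 5973 to 13430 CPM in control. APOB, an apolipoprotein gene on this list, divided by line: it stood at 38.8 and 115 CPM in KO2_RES, 20.2 and 47.8 CPM in KO2, 13638 and 27661 CPM in KO1_RES, 10409 and 21595 CPM in KO1, and 4806 to 6893 CPM in control. KO2 against control gave -7.44 for APOB (SE 0.73, adjusted p = 0.000258) and KO2 against KO1 gave -8.88 (SE 0.80, adjusted p = 0.000123). The markers' part in these results was not tested.

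**Figure D4:**
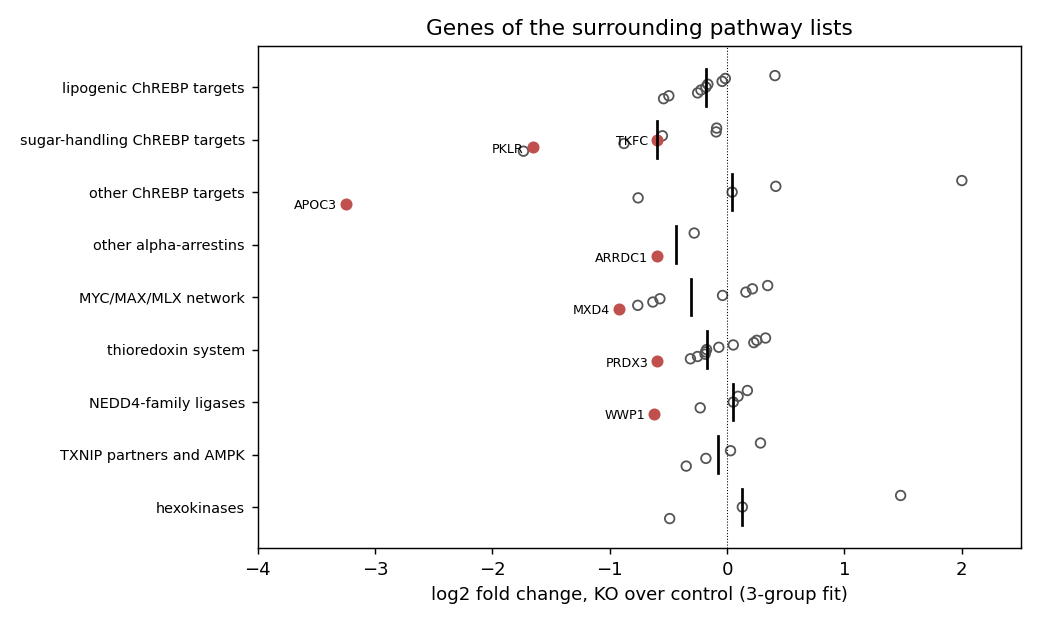
Log2 fold changes of KO over control for the 54 genes tested on 9 pathway lists, 1 point per gene, filled and named where the adjusted p was under 0.05, with a bar at each list's median. All 7 filled points lie below 0, and the sugar-handling median is at -0.59.

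In KO_RES against KO none of the 54 list genes was called, with 2 at an unadjusted p under 0.05 in edgeR and HKDC1 alone called by DESeq2. HK2, a hexokinase often abundant in tumour cells, was higher in both lines against control. It measured 4.24, 7.90, 18.5 and 24.0 CPM in KO_RES, 15.7, 22.5, 27.1 and 40.6 CPM in KO, and 11.2, 10.5, 6.79 and 9.59 CPM in control. Every KO library exceeded every control, which 8.1% of genes did. Each KO_RES library lay below its paired KO library, a pattern whose share over all genes was not counted. The pooled KO over control value was 1.48 (SE 0.47, adjusted p = 0.0850), and KO_RES over KO was -0.95 (SE 0.46, adjusted p = 1.0).

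By line, 4 of the 54 list genes rose and 14 fell in KO1 against control, where 18.1% of all genes tested were called. Of the sugar genes, G6PC1 (-4.17), the catalytic subunit of glucose-6-phosphatase, PKLR (-1.96), TKFC (-0.55) and KHK (-0.41), ketohexokinase, fell, values being log2 fold changes. Of the lipogenic genes, the desaturase SCD (-0.74) and FASN (-0.62) fell, and MID1IP1 (0.52) rose. RGS16 (2.71), a regulator of G-protein signalling, and HK2 (1.0) rose. In the MYC/MAX/MLX network MXI1 (-1.04), MXD3 (-0.81) and MXD4 (-0.75) fell, and MNT (0.49) rose. ARRDC1 (-0.65), WWP1 (-0.68), NEDD4L (-0.56), PRDX3 (-0.52) and PRKAA2 (-0.56), a catalytic AMPK subunit, also fell. Adjusted p ranged up to 0.0433, for KHK. SCD and RGS16 passed with any single library left out. The call was lost without KO 1_1 for G6PC1 (0.0539), PKLR (0.154) and WWP1 (0.178), and without KO 1_2 for MXD4 (0.0853). It was lost without either for MID1IP1, MNT, MXD3, ARRDC1 and PRKAA2 (up to 0.197), and without either or some control for FASN (control 1 or 2), MXI1 (control 2) and HK2 (control 2, 3 or 4; up to 0.27). TKFC (controls 1, 2 and 4), PRDX3 (controls 1, 2 and 3) and NEDD4L (controls 1 and 2) were lost also without KO 1_1, KO 1_2, KO_RES 1_1 or KO_RES 1_2 (up to 0.256), and KHK without any control or any KO library (up to 0.32). Unstranded counts also ended the calls of ARRDC1 (-0.23, adjusted p = 0.258), KHK (0.0929), NEDD4L (0.0537) and TKFC (0.0505), and testing with no filter those of KHK (0.18) and MNT (0.0536).

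In KO2 against control 1 of the 54 list genes rose and 7 fell, where 10% of all genes tested were called. SLC2A2, the liver glucose transporter GLUT2, stood at 8.94 and 9.65 CPM in KO2 against 54.3 to 75.4 CPM in control, a log2 fold change of -2.84 (SE 0.19). HK2 (1.83) rose, and MXD4 (-1.12), PRDX3 (-0.67), TKFC (-0.64), PRDX4 (-0.59) and ARRDC1 (-0.54) fell, with adjusted p up to 0.0457, and HKDC1 is given above. SLC2A2, HK2 and MXD4 passed with any single library left out. PRDX3 was lost without KO 2_1 or KO 2_2 (up to 0.156), TKFC without control 1 or 2, KO_RES 1_1, KO_RES 1_2 or KO 2_1 (up to 0.307), ARRDC1 without any control or any KO library (up to 0.322), and PRDX4 without control 1 or 2, any KO library, KO_RES 1_1 or KO_RES 1_2 (up to 0.232). ARRDC1 was lost as well with unstranded counts (-0.39, adjusted p = 0.0851) and with no filter (0.0521). APOB, given above, moved with this line.

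Set directly against each other, KO2 was higher than KO1 in 3 list genes, G6PC1 by 3.29, ELOVL6 by 0.60 and KHK by 0.57, and lower in 5, out of 54 tested and beside 12% of all genes called. They were SLC2A2 (-2.76), RGS16 (-2.17), SRXN1 (-1.68), HKDC1 (-1.09) and MNT (-0.62), with adjusted p up to 0.0412 over all 8. SLC2A2 passed with any single library left out. G6PC1, KHK and SRXN1 were lost without any one KO library (up to 0.194), RGS16 and MNT without KO 1_1, KO 2_1 or KO 2_2 (up to 0.145), and ELOVL6 without any KO library, control 3, KO_RES 1_1 or KO_RES 1_2 (up to 0.262). KHK was lost as well with unstranded counts (0.0859) and with no filter (0.0977).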

How the data were processed

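The authors deposited, for each of 12 libraries, gene counts made with STAR 2.6.0b on GRCh37, per the submitters' processing notes, as raw read counts without normalization; the annotation release is not given in the sources used here. Of the 3 count columns the reverse-strand one was used, which held 19.8 to 21.1 times the reads of the other strand, and the 4 summary lines that name no gene were left out of library sizes. They include reads mapped to several places (7.21% to 11.6% of the gene reads and summary lines together) and reads in no gene (11.1% to 19.5%, likewise, highest in KO_RES 2_2). Symbols came from gene name tables by identifier (52339 of 57820 genes); ACACA and PECAM1 on the lists below were not matched.

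Genes were filtered with filterByExpr, scaled by TMM and tested with edgeR 4.0.16 (quasi-likelihood, R 4.3.3), with Benjamini-Hochberg adjustment over all genes tested and a threshold of 0.05. A 3-group fit (19200 genes) gave the pooled comparisons and a 5-group fit (20559 genes) those by line. SE is the log2 fold change over the square root of the test's F, and 95% intervals are normal intervals from it. The procedure was first tested on simulated data. Tried besides were DESeq2 1.42.0, RLE scaling, no filter, unstranded counts, each library left out, only the groups compared, other readings of the labels, subsets of controls, and blocks for line or pair. KO and KO_RES libraries of the same line and number deviated together from their group means (r = 0.710, 0.746, 0.773 and 0.745), each closest to its own number, so they were taken as pairs; line and number come from the titles. Within each group of the 5-group fit no library duplicated another, and libraries of different groups were not compared. Controls 1 and 2 were the closest pair (chi-square of counts per degree of freedom 11.4, the next being 41.8 for controls 3 and 4). Depth sets a floor of 3 counts, between 0.0408 and 0.0849 CPM per library.

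The members and the pathway and marker lists were chosen with earlier results of these data known. Named were the 6 members, HKDC1, up to 4 called genes per list and comparison with the smallest adjusted p, and the 8 highest and 4 lowest correlations with TXNIP among genes with a mean of at least 2 CPM (log2 CPM, prior count 2); some genes that this rule names are not reported here.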

Additional observations from a re-analysis of the deposited data

Results flagged for a closer look

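MLXIPL in KO_RES 2_2, at 10.6 CPM, stood far above the other KO_RES libraries, the gap to the nearest being 0.916 of the group's range. Chance flags about 1 in 20 groups, and 21 groups were examined. The lines differed, by the direct test of KO2 against KO1, in ARRDC4 (log2 fold change 1.82, higher in both KO2 libraries than in both KO1 libraries), in MLXIP (0.89, likewise) and in HKDC1 itself (-1.09, adjusted p = 0.0269, lower in both KO2 libraries). That comparison called 12% of genes tested. The share of genes with both KO2 libraries above, or both below, both KO1 libraries was not counted.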

How the results depend on the processing

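The number of genes called in KO against control was 1206, and became 2346 with DESeq2, 1883 with groups by the genotype field, 72 with only the 8 agreeing libraries and 337 with controls 3 and 4 only. For KO_RES against KO it was 0, and 6 with DESeq2, 1 with no filter, 8 with the replicate block (line and number as a pair) and 3 with a line block. DESeq2 and no filter gave 3134 and 3385 for KO2 against control (2062), 217 and 548 for KO1_RES against KO1 (40), 2 and 41 for KO2_RES against KO2 (1), and 33 and 192 for the rescue difference between lines (0). Leaving out 1 library gave 509 to 1506 calls for KO against control, 0 to 0 for KO_RES against KO, 1265 to 4193 for KO1 against control (3721), 530 to 2331 for KO2 against control, 854 to 2775 for KO2 against KO1 (2463), 1 to 40 for KO1_RES against KO1, 0 to 1 for KO2_RES against KO2, and 0 to 1 for the rescue difference. The pairing changed the call of HKDC1 (adjusted p = 0.00346) and of no other named gene tested.

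Signs turned for small values: with controls 1 and 2 only, KO against control was -0.28 for ARRDC3 and 0.078 for MLXIP; with controls 3 and 4 only it was 0.034 for MLXIPL. MLXIPL in KO_RES against KO was 0.53 by the genotype field and 0.51 in the 8 agreeing libraries, and HKDC1 in KO against control was 1.69 by the genotype field. Leaving out 1 library gave, for TXNIP, -1.55 to 0.40 (KO2 against KO1) and -1.25 to 1.81 (rescue difference); for ARRDC3, -0.36 to 0.21 (KO against control), -0.69 to 0.82 (KO1 against control) and -1.05 to 0.45 (KO2 against KO1); for MLXIP, -0.32 to 0.028 (KO against control) and -0.11 to 0.27 (KO_RES against KO); for MLXIPL, -0.42 to 0.13 (KO_RES against KO) and -0.28 to 0.40 (KO2 against KO1); and for MLX, -0.13 to 0.037 (KO_RES against KO). The cause was not tested. With 2 libraries per line and group, differences between lines rest on few libraries.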
